A study of Mus musculus with 12 samples.

Results

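The genes described are 8 regulators that mark the interneuron lineages of the medial and caudal ganglionic eminences (MGE and CGE), namely Nkx2-1, Lhx6, Lhx8, Sox6, Satb1, Maf, Prox1 and Adarb2. They were taken by gene symbol from the 55335 genes of the count tables, and all 8 were found once. Nuclei of P1 (postnatal day 1) mouse forebrain were profiled by single-nucleus RNA sequencing in 8 wild-type (WT) and 4 heterozygous (Het) animals of the MYT1L S710fsX line, whose germline frameshift allele is carried in every cell of a Het animal. The WT animals were 5 males and 3 females and the Het animals 3 males and 1 female, each giving 1 library. Libraries are written here with the genotype, a letter for sex and the replicate number of the labels (WT-M4 is WT male replicate 4). The labels give the tissue as forebrain.

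The ganglionic eminences are the transient proliferative zones beneath the embryonic cortex where its inhibitory interneurons are born. In the MGE the homeodomain factor Nkx2-1 switches on Lhx6, which is kept as the cells migrate and is needed for the later factors Sox6 and Satb1 and for the somatostatin and parvalbumin fates, while Maf acts in the same lineage during and after migration. Neurons that settle in the basal forebrain and striatum keep Lhx8 and often Nkx2-1, and cholinergic neurons depend on Lhx8. CGE-derived interneurons use the homeodomain factor Prox1 and express Adarb2, a member of the family of adenosine deaminases acting on RNA that has no known editing activity of its own.

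In the GRCm38 assembly (GENCODE M21 annotation, to which all 8 identifiers matched) Nkx2-1 (ENSMUSG00000001496.15) lies at chr12:56531958-56536908 on the minus strand. Lhx6 (ENSMUSG00000026890.19) lies at chr2:36081953-36105408 and Lhx8 (ENSMUSG00000096225.7) at chr3:154306294-154330659, both on the minus strand. Sox6 (ENSMUSG00000051910.13) spans chr7:115470872-116038796 and Satb1 (ENSMUSG00000023927.15) chr17:51736187-51833290, also on the minus strand. Maf (ENSMUSG00000055435.6) is at chr8:115682942-115707794 and Prox1 (ENSMUSG00000010175.13) at chr1:190118035-190170714 on the same strand. Adarb2 (ENSMUSG00000052551.16) spans chr13:8202866-8768747 on the plus strand. All are protein-coding. The sources used here do not say whether counting used strand, so reads of Prox1, Sox6, Maf and Nkx2-1 cannot be told from those of antisense genes that overlap them (Prox1os, Sox6os, Gm15655 and Gm26973, among others), and Adarb2 and Satb1 contain unspliced same-strand entries of the annotation.

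Since several members move together across classes, the 250 bases before each annotated start (RefSeq, GRCm38.p6) were searched on both strands for TAATTA, the core bound by LIM-homeodomain factors such as Lhx6 and Lhx8, and for CAAGTG with its reverse complement CACTTG, the core bound by Nkx2-1. Of the 7 members matched in the RefSeq promoters, TAATTA was present in 1 (Adarb2) and CAAGTG in 3 (Prox1, Sox6 and Satb1), and of 27025 genes the 2 motifs were present in 5.65% and 13.22%. The members have 19 windows, since Sox6 has 6 and Satb1 5 annotated starts, and counted by window the motifs were in 1 (5.26%) and 3 (15.8%) of them, beside 4.84% and 11.61% of all 32851 windows. The matches are shown with the motif in capitals, read on the gene's own strand, to let the sequence context be seen, and each is a match of letters only.
Adarb2, chr13:8202803-8202832: tgtgattggatcTAATTAgactttgcggca
Prox1, chr1:190171025-190171054: gtcctggaagagCAAGTGtgagccgggcgc
Sox6, chr7:116031100-116031129: gaataaaaaggtCAAGTGgttacgttcccg
Satb1, chr17:51812146-51812175: ccccccacgaatCACTTGtcagatcaattt

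After filters and removal of marked doublets, 94792 nuclei were kept of 126684 barcodes, with 4466 to 10899 a library, a median of 1698 to 2056 unique molecular identifiers (UMIs, tags that count captured RNA molecules) a nucleus and 0 barcodes shared by a pair of libraries. The 8 members were left out of the genes that clustered the nuclei and out of the markers that named the clusters. Entries of the annotation inside Adarb2 and Satb1 were not left out, and Gm48261 and Gm48259, inside Adarb2, lead CGE cluster 19. Genes that overlap or lie near other members were not left out either, among them Sfta3-ps, 2531 bases from Nkx2-1, which leads cluster 43. The levels of Adarb2, Satb1 and Nkx2-1 by cluster therefore cannot be read as independent of the clustering. For other members with such genes this was not tested. Of the kept nuclei, 22180 (12404 WT and 9776 Het) fell in 11 inhibitory clusters. These were 5390 MGE InhN-like nuclei (InhN, inhibitory neuron; clusters 12, 20, 40 and 43), 2117 CGE InhN-like nuclei (cluster 19), 2058 olfactory-type InhN-like nuclei, 5236 D1-like and 3224 D2-like nuclei (the striatal projection neurons named for their dopamine receptors) and 4155 nuclei of clusters 11 and 28 that stayed unnamed. Cluster 33, of 634 nuclei, also passed the naming rule for MGE InhN-like, but only 2 of 6 inhibitory markers were raised in it, so it was left out of the inhibitory set and of the MGE class. A cholinergic-type-like cluster of 128 nuclei had 2 of 6 inhibitory markers raised and is described beside them. Levels are given in CPM, the counts of a gene per 1000000 UMIs, summed over the nuclei of a class within a library, and shares of nuclei after thinning every nucleus to 700 UMIs.

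**Figure D1:**
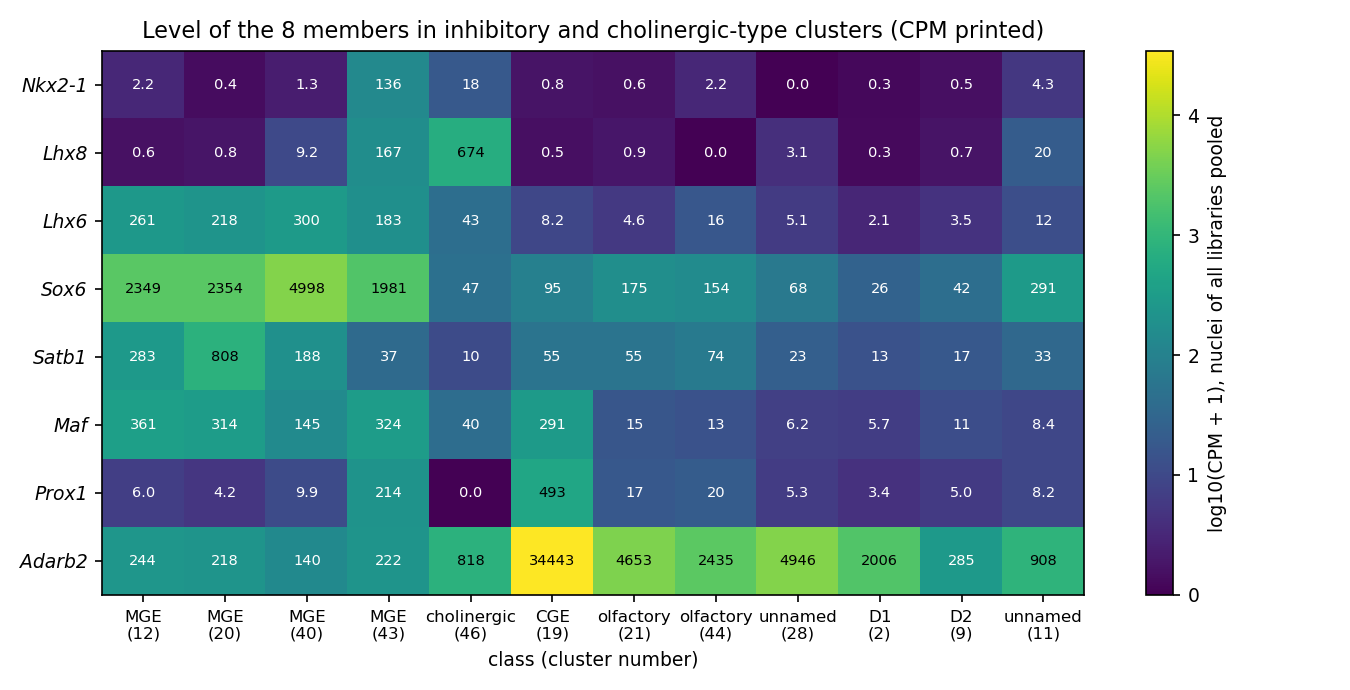
Colour gives log10(CPM + 1) and the printed number the CPM of each member (rows) in each inhibitory or cholinergic-type cluster (columns, with the cluster number), nuclei of all libraries pooled. Lhx6, Sox6 and Satb1 are highest in MGE clusters, Nkx2-1 and Lhx8 in clusters 43 and 46, and Prox1 and Adarb2 in the CGE cluster.

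Nkx2-1 and Lhx8, the factors of the ventral and cholinergic lineages, were highest in 2 small clusters. Nkx2-1 stood at 136 CPM in MGE cluster 43, which held 192 nuclei, where 10.4% of nuclei had a UMI after thinning (21.9% at full depth). In the cholinergic-type-like cluster it stood at 17.6 CPM, from 7 UMIs and with 0% of thinned nuclei. That level is near those of a cycling cluster (14.2 CPM) and a cluster of the oligodendrocyte lineage (11.8 CPM). In the other MGE clusters Nkx2-1 stood at 2.16, 0.40 and 1.31 CPM (clusters 12, 20 and 40), and cluster 43 gave 52 of its 116 UMIs in inhibitory nuclei, with a further 38 in unnamed cluster 11 (4.34 CPM). Lhx8 stood at 674 CPM in the cholinergic-type-like cluster, where 35.2% of nuclei had a UMI after thinning (77.3% at full depth) and the 10 libraries with at least 5 nuclei ranged from 521 to 1041 CPM with a median of 613. In cluster 43 Lhx8 stood at 167 CPM, and in the remaining MGE clusters between 0.59 and 9.20 CPM. The large unnamed cluster 11, at 20.1 CPM, held 175.8 of the 273 inhibitory UMIs of Lhx8. Prox1 was also present in cluster 43, at 214 CPM with a UMI in 14.6% of thinned nuclei (30.7% at full depth), and gave 0 UMIs in the cholinergic-type-like cluster. Cluster 43 was led by Sfta3-ps and St18 and held Etv1, a transcription factor, at 999.6 CPM and Th, the rate-limiting enzyme of catecholamine synthesis, at 62.6 CPM, while its Satb1 stood at 36.5 CPM.

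Lhx6, which maintains MGE identity, was read in all 4 MGE clusters of the inhibitory set, with levels of 261, 218, 300 and 183 CPM in clusters 12, 20, 40 and 43. By library Lhx6 ranged from 185 to 319 CPM in cluster 12 and from 146 to 246 CPM in cluster 20, so these neighbours in the order overlap. In cluster 33 Lhx6 stood at 115 CPM and Satb1 at 207 CPM. In CGE InhN-like nuclei Lhx6 stood at 8.21 CPM, in D1-like nuclei at 2.05 CPM and in the cholinergic-type-like cluster at 42.8 CPM. Of 2160 inhibitory nuclei with a UMI of Lhx6, 1982 (91.8%) were MGE InhN-like.

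Sox6, an SRY-box factor that acts in migration and in the maturation of MGE interneurons, stood at 2349 CPM in cluster 12, 2354 CPM in cluster 20, 4998 CPM in cluster 40 and 1981 CPM in cluster 43. Cluster 40 was the one rich in Nos1 (1304 CPM, neuronal nitric oxide synthase), Npy (280.0 CPM, neuropeptide Y) and Tacr1 (410 CPM, the substance P receptor). Its 12 libraries ranged from 3582 to 6552 CPM of Sox6, all above the highest library of cluster 12 (2700 CPM) and of cluster 20 (2667 CPM). Outside inhibitory nuclei Sox6 reached 4748 CPM in a cluster of the oligodendrocyte lineage and 4678 CPM in a cycling cluster led by Pdgfra.

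Satb1, a chromatin organiser needed for somatostatin interneurons, separated the 2 large MGE clusters. It stood at 808 CPM in cluster 20, with 711 to 956 CPM over the libraries, against 283 CPM (208 to 340) in cluster 12, and the libraries did not overlap. Cluster 20 also held Elfn1, a synaptic organiser of somatostatin interneurons, at 249 CPM and Reln, the secreted protein reelin, at 2404 CPM, against 41.0 and 189.5 CPM in cluster 12. Cluster 12 held more Erbb4, the neuregulin receptor, with 26570 CPM against 4949 CPM. Satb1 was not particular to inhibitory nuclei, with 304 CPM in an unnamed cluster led by Cd24a and 256 CPM in one led by Rorb.

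Maf, a large leucine-zipper factor, did not follow the MGE and CGE division. It stood at 361, 314, 145 and 324 CPM in MGE clusters 12, 20, 40 and 43 and at 291 CPM in the CGE cluster. Within libraries the MGE level of Maf was the higher in 8 of 12. In striatal, olfactory-type and unnamed inhibitory clusters Maf lay between 5.73 and 15.3 CPM, and its highest level of all was 779 CPM in a microglia-like cluster.

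Prox1 stood at 493.2 CPM in the CGE cluster, with 395 to 596 CPM over the libraries, and at 4.19 to 9.86 CPM in MGE clusters 12, 20 and 40. Adarb2 stood at 34443 CPM in the CGE cluster, with 28723 to 40465 CPM over the libraries, and 98.9% of those nuclei had a UMI after thinning. Adarb2 was wider than Prox1, with 4946 CPM in unnamed cluster 28, 4653 CPM in olfactory-type cluster 21 and 2006 CPM in D1-like nuclei. Of 10987 inhibitory nuclei with a UMI of Adarb2 and none of Lhx6, 42.7% were D1-like and 18.9% CGE InhN-like. In MGE clusters Adarb2 lay between 140 and 244 CPM.

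Free RNA can give a UMI in a nucleus that does not express a gene, so shares are set beside those of glutamatergic-type nuclei, whose median depth was 2159.5 UMIs against 1803.5 in MGE and 1605 in CGE InhN-like nuclei before thinning. Lhx6 was detected in a mean of 16.1% of MGE InhN-like nuclei (SD 1.43 over 12 libraries), 0.357% of CGE InhN-like and 0.105% of glutamatergic-type nuclei. The corresponding means for Sox6 were 71.7%, 3.91% and 1.84%, and for Maf 21.5%, 19.3% and 0.314%. Prox1 was detected in 0.960%, 29.6% and 0.266%. The Adarb2 share of MGE InhN-like nuclei (5.85%) was below that of glutamatergic-type nuclei (11.5%), and the Satb1 share of CGE InhN-like nuclei (3.52%) was below theirs (6.30%). Some glutamatergic-type clusters hold these genes themselves (Satb1 at 256 CPM in the Rorb-led cluster, Adarb2 at 1069 CPM in one led by Tfap2d), and these shares therefore do not give the level of free RNA for either gene. Whether the low shares of Adarb2 and Satb1 in these classes are expression or free RNA was not tested. Nkx2-1 was in 0% of thinned glutamatergic-type nuclei.

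Co-detection in the thinned inhibitory nuclei sorted the members into the 2 sets. Of nuclei with a UMI of Lhx6, 72.2% (676 of 936) also had one of Sox6, against 18.2% of nuclei without Lhx6, and the share was higher with Lhx6 in 12 of 12 libraries. Satb1 was in 20.8% of nuclei with Lhx6 and 6.79% without, and Maf in 21.9% and 6.76%, each higher in 12 of 12 libraries. Adarb2 went the other way, in 8.01% of nuclei with Lhx6 and 42.0% without, and Prox1 was in 0.748% and 3.50%, with 0 of 12 libraries higher for either. Of nuclei with Prox1, 90.5% had Adarb2, against 38.8% of those without Prox1. Maf was shared by both sets, since Prox1 was in 9.07% of nuclei with Maf and in 2.93% without, higher in 12 of 12 libraries.

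**Figure D2:**
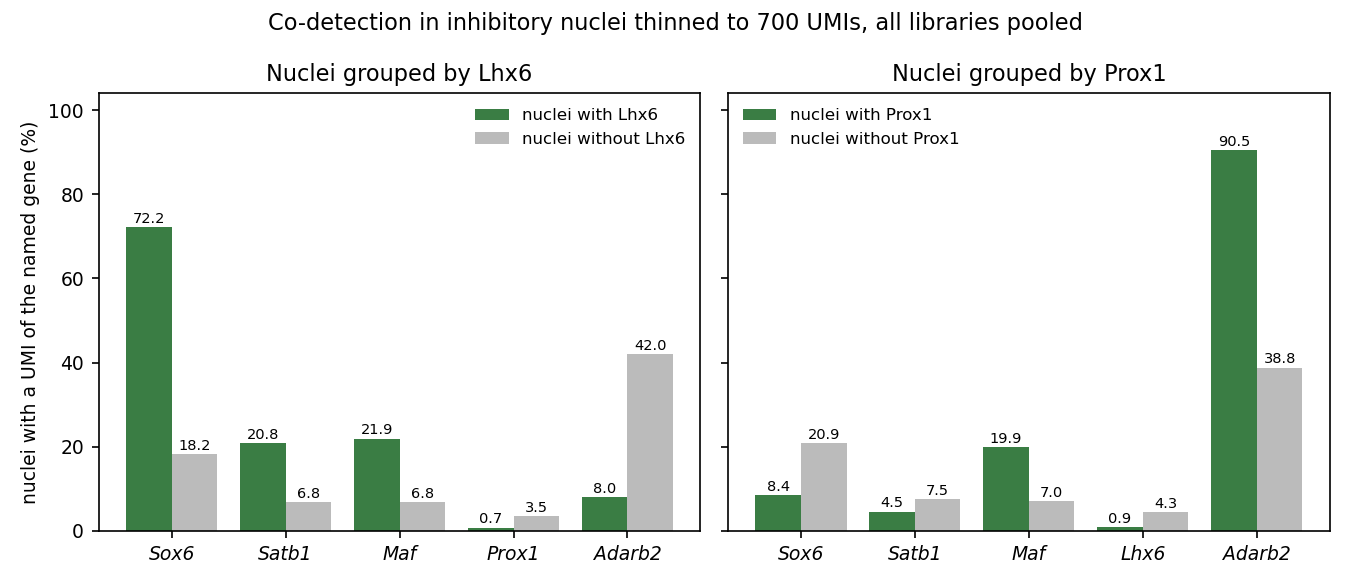
Bars give the percent of inhibitory nuclei, thinned to 700 UMIs and pooled over 12 libraries, with a UMI of the gene on the horizontal axis, for nuclei with (green) and without (grey) Lhx6 at left and Prox1 at right. Sox6 was in 72.2% of nuclei with Lhx6 and Adarb2 in 90.5% of nuclei with Prox1.

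Co-detection was also taken within single classes. Among MGE InhN-like nuclei at full depth, Sox6 was in 89.5% of nuclei with Lhx6 and in 85.9% without, higher in 12 of 12 libraries, and Satb1 in 50.5% and 43.9%. Deeper nuclei hold more UMIs of every gene, and these shares were not thinned. In the MGE class Prox1 was in 21.8% of the 55 nuclei with Nkx2-1 and in 1.91% of the rest. Lhx8 was likewise in 16.4% of nuclei with Nkx2-1 and 0.787% without. Satb1 was in 14.5% of nuclei with Nkx2-1 and in 46.6% without. Nkx2-1 was itself in 21.9% of the nuclei of cluster 43, against 0.35%, 0.10% and 0.30% in clusters 12, 20 and 40. Over all nuclei of cluster 43 Prox1 was in 30.7%, Lhx8 in 20.3% and Satb1 in 6.77%. These contrasts by Nkx2-1 therefore cannot be told apart from membership of cluster 43. Among CGE InhN-like nuclei Prox1 was in 57.1% of nuclei with Maf and in 44.7% without, higher in 11 of 12 libraries. Of 342 inhibitory nuclei with UMIs of both Lhx6 and Adarb2, 219 were MGE InhN-like, 24 CGE InhN-like and 62 of unnamed clusters, and their median depth was 2654 UMIs, against 2072 in nuclei with Lhx6 alone.

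To ask what else separates the 2 sets of nuclei, counts were summed in each library over the 1818 inhibitory nuclei with Lhx6 and without Adarb2, of which 97.0% were MGE InhN-like, and over the 10987 with Adarb2 and without Lhx6. With edgeR's quasi-likelihood test and the library as a block, 1189 of 7327 genes (16.2%) were higher with Lhx6 and 1173 (16%) higher with Adarb2, at a Benjamini-Hochberg adjusted p under 0.05 and a log2 difference of 0.2 or more. All 4 other members that could be tested were called. Sox6 was higher with Lhx6 by 3.98 on the log2 scale (SE 0.113, edgeR adjusted p = 1.5e-19), Satb1 by 3.59 (SE 0.111) and Maf by 2.32 (SE 0.137). Prox1 was lower with Lhx6, with a log2 difference of -3.21 (SE 0.267, edgeR adjusted p = 1.6e-10). Each had the same sign in 12 of 12 libraries. Prox1, however, had 41 UMIs in nuclei with Lhx6 and 0 in 2 libraries, where its difference depends on the prior count. Over libraries it ran from -8.57 to -0.27. Of 17 tested MGE lineage partners 14 were higher with Lhx6, among them Sst (somatostatin, 3.98), Nxph1 (a neurexin ligand, 3.72), Npy (3.42) and Nos1 (2.99), all log2 differences. Tac1, the precursor of substance P and a gene of D1 neurons, was the MGE partner that went the other way (-3.13). In nuclei with Adarb2, Sst had 43 UMIs and 0 in 3 libraries, and Npy had 76 and 0 in 2. In nuclei with Lhx6, Tac1 had 14 UMIs and 0 in 5 libraries. The sizes of the differences of Sst, Npy and Tac1 therefore depend on the prior count. Of 9 tested CGE partners 5 were higher with Lhx6, such as Npas3, a neuronal transcription factor, by 1.37, and 2 were higher with Adarb2, Cnr1 (the cannabinoid receptor, -0.94) and Synpr (a synaptic vesicle protein, -0.58).

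The genes with the largest log2 differences in favour of Lhx6 were Nxph2 (5.24), Gm31218 (4.57), Gm2350 (4.31), Mkx (4.26) and Kcns3 (4.19), the last a potassium channel subunit of fast-spiking cells, followed by E430014B02Rik and 5830444F18Rik, which lie inside Satb1, and Gm38340. In favour of Adarb2 they were Gm48262, Gm48259 and Gm48261, which lie inside Adarb2 and share its reads, and Gm14133, Ebf1, Ikzf1, Pbx3 and C79798. In the nuclei with Lhx6 the summed counts over 12 libraries were 0 for Gm48262, 2 for Gm48259, 5 for Gm48261, 3 for Gm14133, 7 for Ikzf1 and 3 for C79798, so that their fitted differences depend on the prior count, bound nothing and give no order among these genes. Pbx3 had 222 counts in nuclei with Lhx6 and 61160 in those with Adarb2, a log2 difference of -5.54 that ran from -7.95 to -4.16 over libraries. Ebf1, a factor of D1 striatal neurons, had 52 and 31462 counts.

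Since most nuclei with Adarb2 were not CGE InhN-like, the contrast was repeated on MGE and CGE InhN-like nuclei alone, a choice made after seeing the data. All 9 MGE and all 10 CGE markers that named these clusters are on the partner lists, so the direction of those partners was largely set by the naming and their counts are a description. It called 899 of 5725 genes (15.7%) higher with Lhx6 and 845 (14.8%) higher with Adarb2. Of the 4 members 3 were called, Sox6 at 2.76, Satb1 at 2.12 and Prox1 at -5.29, while Maf, with a log2 difference of 0.18 (SE 0.0817, edgeR adjusted p = 0.107), was not. Of 11 tested CGE partners 9 were then higher with Adarb2 and 0 with Lhx6, among them Htr3a (the ionotropic serotonin receptor, -4.54), Id2 (-2.83), Cnr1 (-2.69), Egfr (-1.78) and Nr2f2 (-1.61), and 7 of the 9 were such markers. In the wider set of inhibitory nuclei with Lhx6, Htr3a had 5 UMIs and 0 in 8 libraries, Id2 had 17 and 0 in 2, and Prox1 had 41 and 0 in 2. The sizes of the differences of Htr3a, Id2 and Prox1 therefore depend on the prior count. Of 15 tested MGE partners 12 were higher with Lhx6, while Erbb4 (-0.66) and Kcnc1 (-0.68) were higher with Adarb2, and 9 of these 14 called partners were such markers.

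The comparison of genotypes asks whether the members differ when 1 allele of Myt1l is lost. Over all kept nuclei Myt1l itself had a mean of 1417 CPM (SD 110) in the 8 WT and 1567 CPM (SD 57.1) in the 4 Het libraries. The alleles were not told apart in these counts, so this level checks no label. In all inhibitory nuclei 6 of the 8 members, all but Nkx2-1 and Lhx8, had lower means in Het libraries. Lhx6 ranged in WT from 57.3 to 124.7 CPM with a median of 64.9, and was 62.0, 36.9, 58.1 and 51.8 CPM in Het-M1, Het-M2, Het-M3 and Het-F1. The groups overlap, since WT-M2 (57.3 CPM) and WT-F2 (60.6 CPM) lay below Het-M1, and WT-M4 was the highest library.

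Sox6 in all inhibitory nuclei ranged in WT from 618 to 1677 CPM with a median of 749, and was 602, 467, 578 and 647 CPM in the Het libraries in the same order. Satb1 ranged from 122 to 329 CPM (median 149) in WT and was 122, 89.1, 135 and 123 CPM in Het. Maf ranged from 92.1 to 244 CPM (median 113) and was 119, 61.6, 105 and 78.5 CPM. In each gene Het-M2 was the lowest library of all 12 and WT-M4 the highest. Adarb2 ranged from 3593 to 8138 CPM (median 4414) in WT and was 5268, 2603, 3453 and 2859 CPM in Het. Prox1 ranged from 29.1 to 112 CPM (median 42.8) and was 70.6, 33.4, 56.2 and 33.8 CPM, with overlapping groups.

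**Figure D3:**
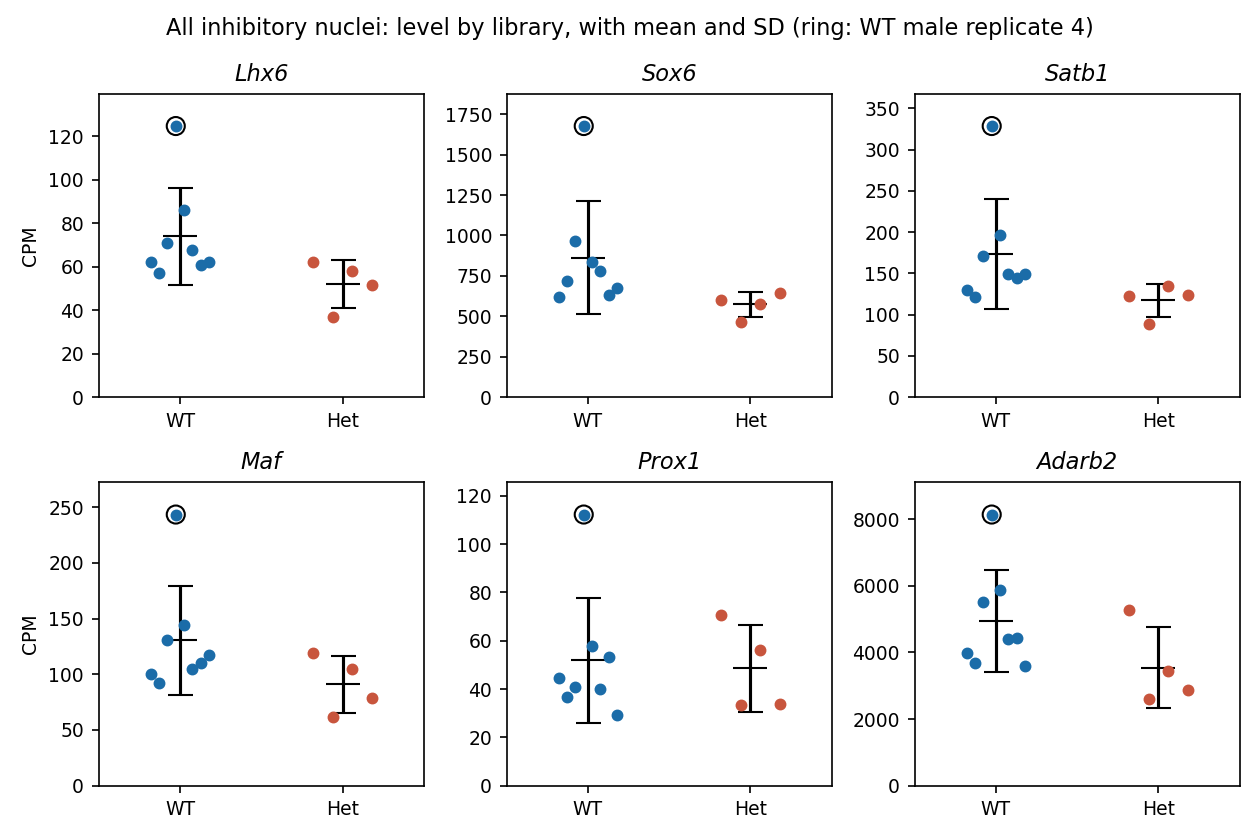
Each point is the level (CPM, linear axis from 0) of a member over all inhibitory nuclei of 1 library, with the mean and SD of the 8 WT and 4 Het libraries. The ringed WT-M4 is the highest library for all 6 genes, from 112 CPM for Prox1 to 8138 CPM for Adarb2.

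In the edgeR fit over all inhibitory nuclei 0 of 7 tested members were called, as were 0 of all 13679 genes (0%). At an unadjusted p under 0.05 there were 5 members, beside 7.78% of all genes (1064). The log2 differences, Het minus WT, were -0.48 for Lhx6 (SE 0.171, edgeR adjusted p = 0.540), -0.60 for Sox6 (SE 0.216, adjusted p = 0.540), -0.55 for Satb1 (SE 0.204, adjusted p = 0.554), -0.50 for Maf (SE 0.216, adjusted p = 0.607) and -0.49 for Adarb2 (SE 0.215, adjusted p = 0.607). Prox1 had a difference of -0.04 and Nkx2-1 was below the filter on low counts. Lhx8 had a difference of 0.71 (SE 0.415, adjusted p = 0.710), which was 0.13 without Het-M2, 0.30 with the replicate number as a block, 0.43 with clusters at resolution 0.8 and 0.37 with a gate on 4 GABA genes. DESeq2 called 5 genes and 0 members. Without a filter beyond 1 count edgeR called Lhx6 (-0.46, adjusted p = 0.0491), Sox6 (-0.57, adjusted p = 0.0135) and Satb1 (-0.53, adjusted p = 0.0240), among 108 of 36049 genes (0.3%). Of 17 tested MGE partners 16 were lower in Het, with a median log2 difference of -0.43, beside -0.0045 over all genes, and 0 were called. Kcnc2, a fast potassium channel, had the largest (-0.68), before Erbb4 (-0.63), Nxph1 (-0.60) and Elfn1 (-0.57).

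The make-up of the inhibitory nuclei moved with these levels. MGE InhN-like nuclei were 23.6 to 32.0% of inhibitory nuclei in 7 WT libraries and 57.4% in WT-M4, and 22.5, 13.8, 21.5 and 22.2% in Het-M1, Het-M2, Het-M3 and Het-F1, so that the groups did not overlap on this base. As a share of all kept nuclei they were 5.13 to 7.47% in WT and 4.24 to 5.71% in Het libraries, which overlap (exact permutation p = 0.0202). Striatal D1-like nuclei were 2.75% of inhibitory nuclei in WT-M4, 15.3 to 27.8% in the other WT and 25.2 to 30.6% in Het libraries. The summed level of the 9 MGE markers in all inhibitory nuclei was 12880 to 24980 CPM in WT and 8684 to 13022 CPM in Het libraries, with 0 of 9 higher on average in Het. A lower share of a cell type and less RNA per cell cannot be told apart in such sums. Without WT-M4 the log2 differences were -0.37 for Lhx6, -0.39 for Sox6, -0.38 for Satb1, -0.34 for Maf and -0.35 for Adarb2, with 4 of 8 tested members at an unadjusted p under 0.05, and without Het-M2 it was 1 of 7 (Sox6). That count was 3 without WT-M3, without WT-M5, in males alone and with a gate on 4 GABA genes in place of the clusters. It rose to 7 of 8 without Het-M1 and 6 of 7 without WT-M2. With the gate the log2 differences were -0.29 for Lhx6, -0.39 for Sox6, -0.38 for Satb1, -0.30 for Maf and -0.42 for Adarb2. With the replicate number as a block, over 4 against 4 libraries, they were -0.32, -0.43, -0.30, -0.26 and -0.36 for the same genes.

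Within MGE InhN-like nuclei the MGE factors had like levels in both genotypes. Lhx6 ranged in WT from 207 to 264 CPM with a median of 238, and was 276, 224, 254 and 221 CPM in Het-M1, Het-M2, Het-M3 and Het-F1. Sox6 ranged from 2279 to 2936 CPM (median 2471) in WT and was 2583, 2779, 2411 and 2437 CPM in Het. Satb1 ranged from 440 to 536 CPM (median 506) and was 482, 507, 546 and 499 CPM. Maf ranged from 273 to 417 CPM (median 316) and was 365, 329, 358 and 262 CPM. WT and Het libraries overlapped in all 4 genes, and WT-M4 was the highest library in 0 of the 4.

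In the edgeR fit 0 of 6 tested members were called in MGE InhN-like nuclei, beside 0.0116% of all genes (1 of 8649). The log2 difference was 0.02 for Lhx6 (95% interval -0.15 to 0.20, edgeR adjusted p = 0.979), -0.01 for Sox6 (-0.15 to 0.14), 0.01 for Satb1 (-0.14 to 0.16), -0.0016 for Maf (-0.21 to 0.20) and -0.04 for Adarb2 (-0.38 to 0.30). Prox1 had a difference of 1.05 (SE 0.303, interval 0.43 to 1.67, unadjusted p = 0.00184, edgeR adjusted p = 0.239). It was the only member at an unadjusted p under 0.05, as were 7.55% of all genes. The filter on low counts asks for enough counts in as many libraries as the smaller group has, here 4. All 4 Het libraries lay above the WT median of Prox1, so it reached this test through the group where it is high. Its p and interval in this fit are therefore a description. Prox1 ranged from 4.16 to 17.7 CPM (median 7.03) in WT and was 14.0, 11.4, 24.9 and 24.7 CPM in Het libraries, which overlap, and rests on 141 UMIs in all. Without a filter beyond 1 count it was called (1.06, edgeR adjusted p = 0.0291), as were 68 of 28744 genes (0.237%). Of 16 tested MGE partners 10 were lower in Het in this class, with a median log2 difference of -0.07, beside -0.0059 over all genes, and 0 were called.

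Of those 141 UMIs of Prox1, 82 came from cluster 43, whose share of kept nuclei was 0.161% (SD 0.0822) over the 8 WT and 0.257% (SD 0.0509) over the 4 Het libraries. Within cluster 43 Prox1 stood at 159 ± 105 CPM in the 7 WT libraries with at least 5 nuclei (SD) and at 258 ± 141 CPM in the 4 Het libraries (SD). In cluster 12 the means were 4.67 CPM (SD 2.84) over the 8 WT and 7.94 CPM (SD 4.11) over the 4 Het libraries. When cluster 43 was left out, Prox1 no longer passed the filter on low counts. What part the share of cluster 43 has in the difference was not tested further.

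**Figure D4:**
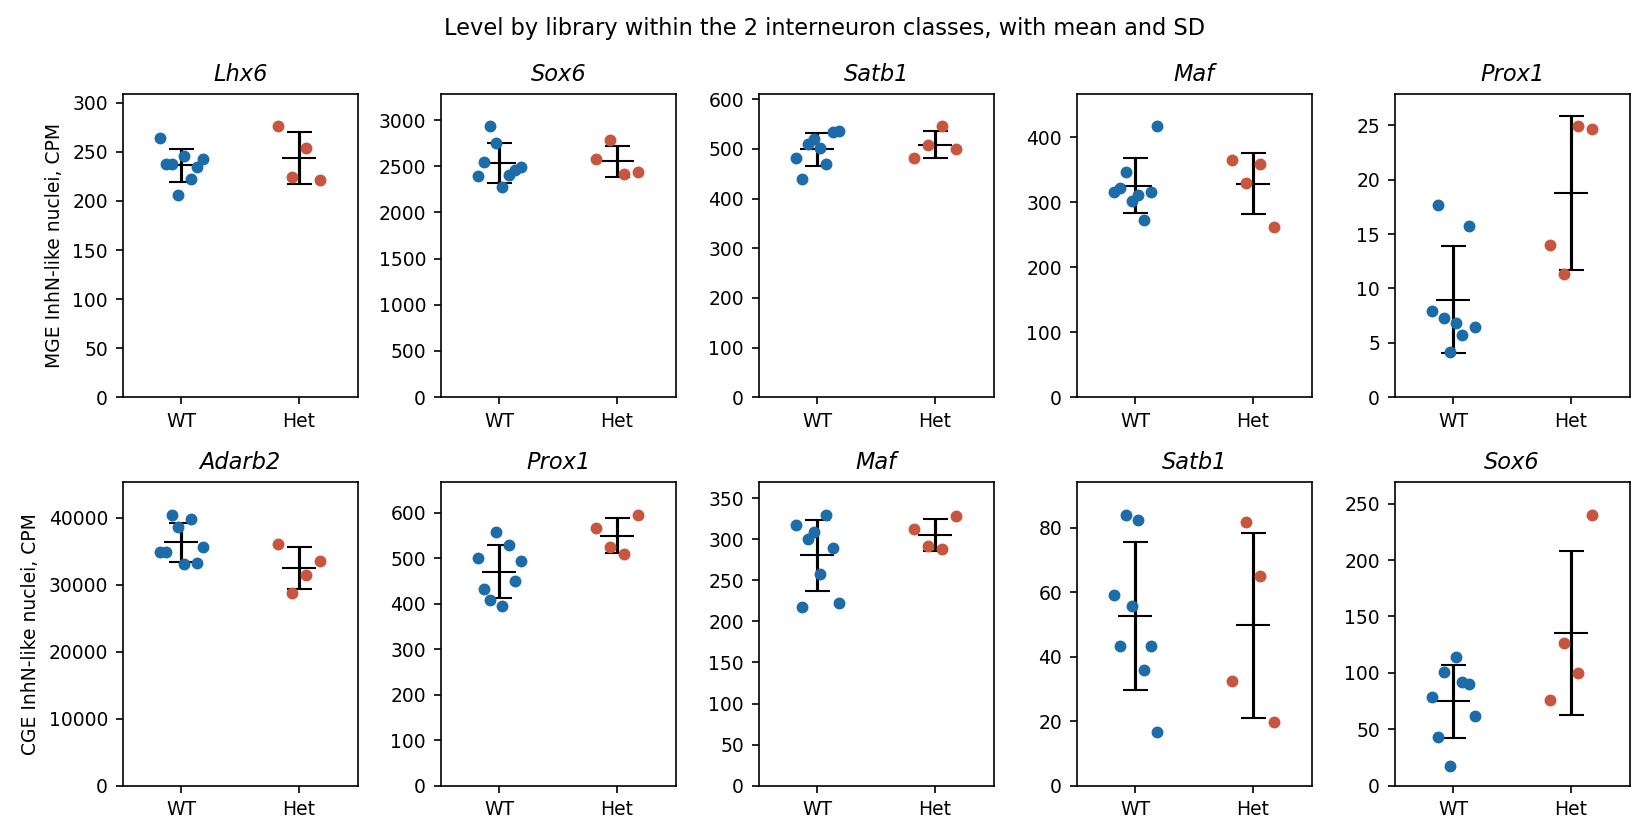
Points are the level (CPM, linear axis from 0) of a member in 1 library over MGE InhN-like nuclei (upper row) or CGE InhN-like nuclei (lower row), with the mean and SD of 8 WT and 4 Het libraries. In the MGE row Lhx6, Sox6, Satb1 and Maf overlap between genotypes, and in the CGE row Adarb2 and Prox1 overlap in part.

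In CGE InhN-like nuclei Adarb2 ranged in WT from 33038 to 40465 CPM with a median of 35274, and was 36067, 28723, 31402 and 33551 CPM in the Het libraries in the order above, so that Het-M2 and Het-M3 lay below every WT library. Prox1 ranged from 395 to 558 CPM (median 472) in WT and was 567, 525, 510 and 596 CPM in Het, with Het-M1 and Het-F1 above every WT library. Sox6, which is not a factor of this lineage, ranged from 17.2 to 114 CPM (median 84.2) in WT and was 75.7, 126, 100.03 and 240 CPM in Het.

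Of the 5 members tested in CGE InhN-like nuclei 0 were called, beside 0% of 4843 genes, and 3 had an unadjusted p under 0.05, beside 4.75% of genes. The log2 differences were -0.18 for Adarb2 (SE 0.0817), 0.21 for Prox1 (SE 0.104), 0.63 for Sox6 (SE 0.279) and 0.09 for Maf (interval -0.15 to 0.32), each with an edgeR adjusted p of 0.979. The count of 3 was 0 in males alone, 1 with the replicate block, with non-whole entries at 0 or without a filter, 1 without WT-M2, WT-M3, Het-M2 or Het-F1, and 2 or 3 under the other settings. The Sox6 difference was 0.31 without Het-F1 and up to 0.86 with another library left out, and that of Adarb2 was -0.12 without Het-M2. The summed level of the 9 MGE markers in this class was 25077 to 32477 CPM in WT and 25556 to 28408 CPM in Het, and 5 of 9 were higher on average in Het. Their part in the Sox6 difference was not tested.

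**Figure D5:**
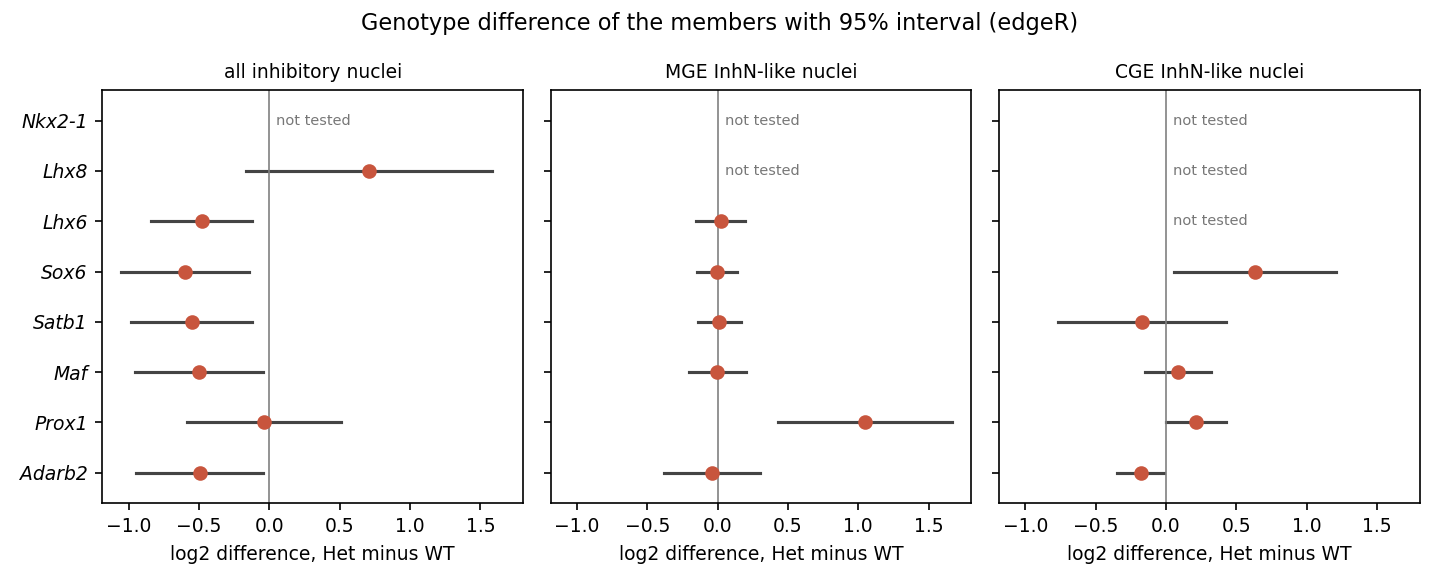
Points are log2 differences, Het minus WT, of each member with its 95% interval from edgeR, in all inhibitory, MGE InhN-like and CGE InhN-like nuclei, for the members that passed the filter on low counts. Lhx6, Sox6, Satb1 and Maf lie between -0.60 and -0.48 at left and between -0.01 and 0.02 in the middle.

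In the other classes 0 members were called, beside 0% of genes in olfactory-type InhN-like nuclei (5883 tested), 0.0442% in D1-like nuclei (9051 tested), 0.0653% in D2-like nuclei (6124 tested), 0% in unnamed inhibitory nuclei (7538 tested) and 0.0491% in the inhibitory nuclei with a UMI of Lhx6 (6105 tested). In those nuclei with Lhx6 of the 11 inhibitory clusters the log2 differences were -0.06 for Sox6 (interval -0.23 to 0.12), -0.04 for Satb1 (-0.26 to 0.18), -0.20 for Maf (-0.52 to 0.11) and 0.41 for Adarb2 (-0.29 to 1.11). There 13 of 16 tested MGE partners were lower in Het, with a median of -0.20, beside -0.0051 over all genes, and 0 were called. At an unadjusted edgeR p under 0.05 there were 5 of the 16, beside 430 of 6105 genes. With a library left out the difference in these nuclei ran from -0.35 to -0.088 for Maf and from 0.26 to 0.66 for Adarb2. Adarb2 in D1-like nuclei differed by 0.05 (interval -0.13 to 0.22). In unnamed inhibitory nuclei Adarb2 differed by -1.03 (SE 0.256, unadjusted p = 0.000648, edgeR adjusted p = 0.444), the only one of 4 tested members at an unadjusted p under 0.05, as were 5.73% of genes. This class joins cluster 28, where Adarb2 averaged 6183 CPM (SD 1656) over WT and 5360 CPM (SD 2295) over Het libraries, and cluster 11, where it averaged 1263 CPM (SD 623) and 676 CPM (SD 273). Cluster 11, with the lower level, made up 2.37% of kept nuclei in WT and 4.27% in Het libraries, and cluster 28 made up 1.25% and 1.15%.

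The share of thinned inhibitory nuclei with a UMI was compared as well. Sox6 was detected in 24.9% (SD 8.22) of inhibitory nuclei over the 8 WT and 17.4% (SD 2.29) over the 4 Het libraries, with an exact permutation p of 0.00404, the smallest that 8 against 4 libraries allow. Satb1 was in 9.16% and 6.23% (exact p = 0.0202), Maf in 8.93% and 6.41% (exact p = 0.0323) and Lhx6 in 5.14% and 3.60% (exact p = 0.0646). Thus 3 of 6 tested members had an exact p under 0.05, beside 7.19% of 9453 genes, and 0 passed adjustment over all genes. MGE InhN-like nuclei as a percent of inhibitory nuclei also differed, by -10.7 percentage points, Het minus WT (exact permutation p = 0.00404). What part this make-up has in the detection shares of the members was not tested. Without WT-M4 the share in WT was 22.1% for Sox6, and the difference, Het minus WT, went from -7.48 to -4.68 percentage points for Sox6 (exact p = 0.00606), from -2.93 to -1.81 for Satb1 (exact p = 0.0303), from -2.52 to -1.60 for Maf (exact p = 0.0485) and from -1.54 to -0.977 for Lhx6 (exact p = 0.0970). Without Het-M2 only Sox6 had an exact p under 0.05 (0.0121), with 0.0606 for Satb1 and 0.0970 for Maf. With the gate the differences were -4.98 percentage points for Sox6 (exact p = 0.0162), -1.90 for Satb1 (exact p = 0.0283), -1.49 for Maf (exact p = 0.230) and -0.780 for Lhx6 (exact p = 0.145). For Maf the exact p was 0.109 when nuclei were thinned to 1000 UMIs and 0.0889 without thinning, and for Lhx6 it was 0.0646 and 0.00808. Among all kept nuclei it was 0 of 6, beside 8.31% of 10092 genes.

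Whether the genotype difference of a member differed between the MGE and CGE classes was tested on the level in MGE minus that in CGE InhN-like nuclei of the same library. Of the 5 members tested 0 had an exact permutation p under 0.05, beside 4.55% of 4809 genes. For Sox6 the log2 gap between the classes averaged 5.21 (SD 0.903) over WT and 4.36 (SD 0.737) over Het libraries (exact p = 0.121). For Prox1 it averaged -5.76 (SD 0.762) and -4.91 (SD 0.548, exact p = 0.0889). Prox1 entered this contrast through the filter in MGE InhN-like nuclei, which it passed through the group where it is high. Its values and p here are therefore a description. With a library left out the Het minus WT difference of the Sox6 gap ran from -1.09 (without Het-M1, exact p = 0.0485) to -0.51 (without Het-F1). That of Prox1 ran from 0.65 (without Het-M3) to 1.03 (without Het-M2). Its exact p was 0.0364 without WT-M2 and 0.0485 without WT-F2. Lhx6, Sox6 and Satb1 were higher in the MGE class in 12 of 12 libraries, and Prox1 and Adarb2 were lower in 12 of 12.

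Co-detection was compared between genotypes over the 15 of 28 pairs with enough nuclei, as the log2 odds ratio per library. None passed adjustment over the 15 pairs. For Sox6 with Satb1 the log2 odds ratio averaged 2.25 (SD 0.471) over the 8 WT and 3.04 (SD 0.0787) over the 4 Het libraries (exact permutation p = 0.00808, adjusted p = 0.121). For Lhx6 with Sox6 the means were 3.21 ± 0.498 and 3.94 ± 0.301 (exact p = 0.0162, adjusted p = 0.121), and for Lhx6 with Adarb2 -4.15 ± 1.4 and -2.37 ± 0.778 (exact p = 0.0323, adjusted p = 0.162). The difference of the means, Het minus WT, was 1.78 for Lhx6 with Adarb2, 0.719 when nuclei were thinned to 1000 UMIs, 0.901 without thinning and 2.65 in males alone. For Sox6 with Satb1 it was 0.793, and 0.510 without thinning. The part of the share of MGE InhN-like nuclei, given above, in these odds ratios was not tested.

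Across the 48 clusters of at least 100 nuclei, inhibitory or not, the genes most like each member were sought by Pearson's r of log2(CPM + 10) among 8825 genes, as a description. The clusters share libraries, so r carries no test. For Lhx6 they were Gm31218 (r = 0.89), Dgkg, a diacylglycerol kinase (0.81), and Nxph2 (0.76). For Sox6 they were 1110004F10Rik (0.87), which starts 601 bases from Sox6, Nxph1 (0.81) and Sox2 (0.78). For Lhx8 they were Slc10a4, a vesicular protein of cholinergic neurons (0.92), Gm26973 (0.91) and Gdnf, a neurotrophic factor (0.87). For Nkx2-1 they were Sfta3-ps (0.91), 2531 bases away, Gm26973 (0.89), which overlaps it on the other strand, and Gpr83 (0.89). For Prox1 they were Fbln2 (0.69), Arl4c (0.66) and Chd7 (0.61), and for Maf they were Socs5 (0.70), Mafg (0.70) and Zfp536 (0.69). Those of Satb1 (E430014B02Rik, C230085N15Rik and 5830444F18Rik, r of 0.82 to 0.88) and Adarb2 (Gm48261, Gm48259 and Gm48262, r of 0.80 to 0.95) lie inside the gene on its strand.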

How the data were processed

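The authors mapped reads to mm10 with the ScaleRna workflow and deposited expected counts, that is, UMI counts per gene and nucleus in which UMIs that fitted several genes were divided (6.74 to 7.05% of entries of a library). The submitters' processing notes name Seurat 4.3.0. The design had assumed whole counts, so sums were rounded before the count models. Total UMIs per library ranged from 15439429 to 40784144. The filter kept nuclei with 300 to 3000 genes, 800 to 6000 UMIs, no more than 1% of UMIs from mitochondria and a log ratio of genes to UMIs of 0.9 or more. In each library the 5% of barcodes nearest to simulated doublets were marked and removed. Free RNA was not subtracted. The 3000 most variable genes without the members gave 50 components, which were clustered at a resolution of 1.5 (leidenalg 0.10.2). A cluster was named where at least 3 markers were raised by 0.5 (log2), the mean was at least 0.4, it led by 0.25 and a marker was among its 10 leading genes. The naming thresholds were chosen with the clusters in view. The members, lists and comparisons were chosen with earlier results of these data known.

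Sums per library were tested with edgeR 4.0.16 (quasi-likelihood, TMM, filterByExpr, genotype alone), with libraries of at least 10 nuclei, a Benjamini-Hochberg adjusted p under 0.05 over all genes tested and a log2 limit of 0.2. Shares, odds and class contrasts were tested by exact two-sided permutation of the 495 assignments of the libraries. Litters are not given per library, so p-values cover the spread between these animals. Named genes were the members, the called or most different genes of lists of MGE, CGE, subpallial and cholinergic partners and GABA genes, the 8 largest called differences a direction, and the 3 most like genes. The alternatives were DESeq2 1.42.0, RLE scaling, no filter, sex as a covariate, males alone, a replicate block, kept doublets, non-whole entries at 0, a coarser clustering, a gate on GABA genes, other thinning and each library left out. The code was tested on simulated data. Fits for the cholinergic-type-like cluster and for nuclei with Nkx2-1 were not run, since fewer than 3 libraries of a genotype had 10 nuclei.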

Additional observations from a re-analysis of the deposited data

Results flagged for a closer look

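In 38 groups of libraries tested, 7 values stood apart from the rest of their group. Chance flags about 1 in 20 independent groups, but these groups share libraries, so that rate cannot be set against the 7. All flags but that of Het-M2 were of WT-M4. In all inhibitory nuclei WT-M4 lay far above the other 7 WT libraries for Lhx6 (124.7 CPM, others 57.3 to 86.1), Sox6 (1677 CPM, others 618 to 968), Satb1 (329 CPM, others 122 to 197), Maf (244 CPM, others 92.1 to 144) and Prox1 (112 CPM, others 29.1 to 57.8). MGE InhN-like nuclei were 57.4% of its inhibitory nuclei, against 23.6 to 32.0% in the other WT libraries. Among the Het libraries, Het-M2 stood apart with 13.8% MGE InhN-like nuclei, against 21.5 to 22.5%.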

How the results depend on the processing

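Of the summary counts, 56 under other settings and 140 with a library left out stayed within 1.5 times, while 5 and 4 moved. A count of 0 members that stayed 0 was taken as unchanged, so these totals do not measure agreement. Of the values of named genes 286 and 684 kept their direction and side of the threshold, while 17 and 34 changed direction. Under other settings a further 4 became called and 1 was no longer called. Without a filter beyond 1 count, 3 members were called in all inhibitory nuclei (Lhx6 -0.46, Sox6 -0.57 and Satb1 -0.53) and 1 in MGE InhN-like nuclei (Prox1 1.06), among 108 and 68 genes, against 0 and 1 genes with the filter, and the cause was not tested. DESeq2 called 5 and 19 genes there. Members with a lower or higher detection share in inhibitory nuclei (3) were 1 among males alone and 1 to 3 with a library left out, 1 without Het-M2. The members whose MGE and CGE gap differed numbered 0 to 1 with a library left out. After thinning to 700 UMIs, 389 genes were higher with Lhx6 and 447 with Adarb2, of 2773 tested. On MGE and CGE InhN-like nuclei alone the log2 difference of Maf was 0.18 and not called.

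The replicate block (4 against 4 libraries) called 0 members, and 3 genes in all inhibitory and 9 in MGE InhN-like nuclei, and turned Prox1 in all inhibitory nuclei to 0.23 and Maf in MGE InhN-like nuclei to 0.054. Same-numbered pairs correlated at -0.153, 0.409, -0.0381 and 0.345 over 8344 genes, not all above 0.1, so the numbers were not taken to pair the libraries, and 2 of 4 Het libraries correlated best with their own number. Which libraries share a litter was not known here.

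Log2 differences near 0 in MGE InhN-like nuclei changed sign. Sox6 became 0.016 without a filter, 0.0015 with doublets kept, 0.032 with non-whole entries at 0 and 0.018 without cluster 43. Satb1 became -0.0030 at resolution 0.8 and -0.0061 with cluster 33. Maf became 0.0018 with DESeq2 and 0.0018 with RLE scaling, 0.019 without a filter, 0.12 in males, 0.0011 with non-whole entries at 0, 0.017 at resolution 0.8, 0.014 with cluster 33 and 0.018 without cluster 43. Adarb2 became 0.16 with non-whole entries at 0. The changes to cluster 33 and cluster 43 and the MGE and CGE nuclei alone were chosen after seeing the data.

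With each library left out in turn, sign changes lay within -0.26 to 0.13 for Prox1 in all inhibitory nuclei. In MGE InhN-like nuclei the ranges were -0.036 to 0.065 for Lhx6, -0.051 to 0.035 for Sox6, -0.027 to 0.043 for Satb1, -0.049 to 0.093 for Maf and -0.16 to 0.063 for Adarb2. Elsewhere they were -0.47 to 0.070 for Satb1 in CGE InhN-like nuclei, -0.11 to 0.067 for Satb1 in nuclei with Lhx6, -0.098 to 0.34 for Sox6 in D1-like nuclei, -0.52 to 0.097 for Sox6 in D2-like nuclei and -0.049 to 0.65 for Lhx8 in unnamed nuclei. The detection share of Prox1 in inhibitory nuclei differed by -0.889 to 0.154 percentage points and that of Sox6 in all kept nuclei by -0.239 to 0.515. The MGE and CGE gap differed by -0.14 to 0.49 for Satb1 and -0.19 to 0.022 for Maf. Depth limits Nkx2-1 (116 UMIs in inhibitory nuclei), Lhx8 (273) and Lhx6 in CGE InhN-like nuclei (32).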
